A study of Mus musculus with 12 samples.

Results

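RNA from epiblast-like cells (EpiLCs) lacking Pcbp1 was compared with RNA from control EpiLCs after 48 h of differentiation. Cells of the mouse embryonic stem line E14 Tg2a were moved from naive culture, which was serum-free with LIF, a MEK inhibitor and a GSK3 inhibitor, to fibronectin with bFGF, activin A and serum replacement. The 6 libraries described here, of 12 in the series, come from 3 Pcbp1 knockout (KO) clones and 3 control clones at 48 h, and the other 6 come from the same numbered clones in naive culture. The sample labels call the controls wild type (WT), while the series text calls them scrambled (Scr) control clones, and the position of the edit in Pcbp1 is not given in the sources used here. Each library is 1 clone, so the spread between replicates is the spread between clones, and any difference a clone acquired by itself is part of it.

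PCBP1, also known as hnRNP E1, is a KH-domain protein that binds poly(C) stretches in RNA and DNA and acts in splicing, mRNA stability, translation and iron delivery. Its gene has no introns. EpiLCs stand for the formative state between naive and primed pluripotency: cells turn off naive factors such as Klf4 and Esrrb, turn on Fgf5, Otx2, Pou3f1 and the de novo DNA methyltransferases, and keep Pou5f1 and Sox2. ATF4 is the transcription factor of the integrated stress response. It is made when eIF2 is phosphorylated or when mTORC1 is active, and it drives amino acid synthesis, amino acid import and tRNA charging genes.

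In the KO cells 18 of 26 genes in a list of ATF4 and stress-response targets fell, Atf4 itself among them. So did 11 of 21 genes that make serine, glycine and one-carbon units, 12 of 20 cytosolic aminoacyl-tRNA synthetases and 11 of 23 glycolytic genes. Of all genes 7.90% fell (edgeR quasi-likelihood test, adjusted p under 0.05). The lists and their members were chosen with earlier results of these data known, so their shares are not independent of these data. All 7 tested genes of the Magea cluster, germline genes that are near-identical copies, rose. Endoderm transcription factors rose in 8 of 11 cases at low levels and p53 targets in 8 of 18, where 7.14% of all genes rose. None of 18 naive pluripotency genes was called with all 6 libraries. Without WT replicate 2, 5 of them rose, where 8.65% of all genes rose, and without WT replicate 3 none rose and 2 fell.

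The EpiLC libraries held 27146744 to 42204511 counts, and 24375 to 25190 genes were detected in the WT libraries against 26772 to 27834 in the KO libraries. Levels are given as CPM, counts relative to library size scaled by the TMM method, which are not divided by gene length and are compared here between libraries of 1 gene, not between genes. WT replicate 2 stood apart. The mean log2 CPM of 18 naive pluripotency genes was 5.66 in that library against 4.41 and 4.29 in the other WT libraries, and the median of chromosome 14 genes was -0.30 there, against 0.12 and 0.15, relative to the WT mean on the log2 scale. Among the KO libraries the median of chromosome 19 genes was -0.17, -0.07 and 0.26, the median of chromosome M genes was -1.11 in KO replicate 2, and that of 6 chromosome Y genes was -0.93, -2.40 and 0.31. Results that rest on one of these libraries are given with and without it.

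Pcbp1 itself (ENSMUSG00000051695.6, chr6:86524492-86526321, minus strand, GRCm38) was at 692, 512 and 591 CPM in the WT libraries and at 250.3, 302 and 265 CPM in the KO libraries. All 3 KO libraries lay below all 3 WT libraries, but transcript reads remained in each of them. It fell by 1.14 on the log2 scale (SE 0.112, edgeR adjusted p = 0.000124). The gene overlaps 1600020E01Rik in the annotation and the counting did not use strand, so reads of both cannot be told apart. Its relatives Pcbp2, Pcbp3 and Hnrnpk had log2 fold changes of -0.10, -0.19 and 0.09 and were not called. Pcbp4 fell by 0.39 (SE 0.113, adjusted p = 0.0380), a call that was lost without WT replicate 1, WT replicate 3, KO replicate 1, KO replicate 2 or KO replicate 3 (adjusted p = 0.122, 0.0759, 0.134, 0.0760 and 0.0744).

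Of 18134 genes tested, 1294 (7.14%) rose and 1432 (7.90%) fell at an adjusted p under 0.05, together 15.0%. At a change of at least 2-fold, 854 (4.71%) rose and 480 (2.65%) fell. The rises and falls lay in different ranges of CPM, which orders genes by their counts and not by transcript level. Among genes with a mean under 1 CPM over the 6 libraries, 412 rose and 80 fell of 4550 tested, while among genes at 100 CPM or more, 69 rose and 319 fell of 2422. Genes that fell in the top range changed by a median of 0.47 on the log2 scale, and those that rose in the lowest range by a median of 2.36. The median log2 fold change over all genes was 0.00.

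The count moved with single libraries. It was 1835 without WT replicate 1, 3090 without WT replicate 2, 1721 without WT replicate 3, 1368 without KO replicate 1, 1911 without KO replicate 2 and 1749 without KO replicate 3. Whichever of the 6 libraries was left out, 512 genes rose and 600 fell. The genes described below with no remark on a lost call kept their call in all of these fits, while counts of list members are those with all 6 libraries unless a library is named. Such counts stand beside the 7.14% of all genes that rose and the 7.90% that fell. Values of every KO library lay above every WT library for 2921 genes (16.1%) and below for 3117 (17.2%).

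**Figure D1:**
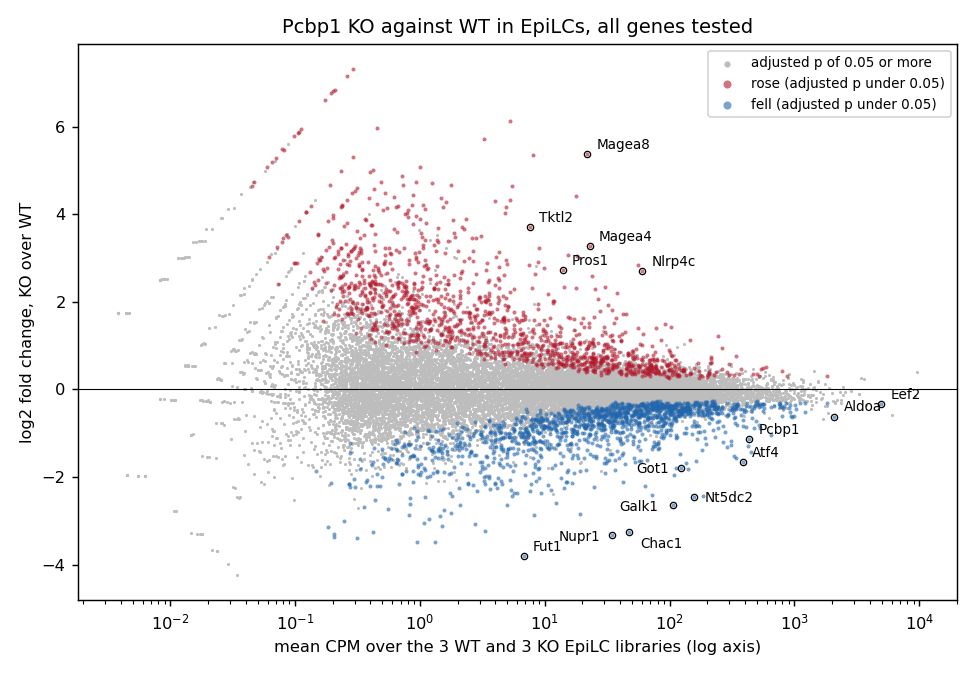
Log2 fold change (KO over WT, y axis) of each of the 18134 genes tested against its mean CPM over the 6 EpiLC libraries (log x axis); red points rose and blue points fell at an adjusted p under 0.05, and circled points are named. Falls crowd the right side, where 319 of 2422 genes at 100 CPM or more fell, and rises the left side, where 412 of 4550 genes under 1 CPM rose.

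The lowest fold changes among genes with a mean of at least 5 CPM were those of Fut1, Nupr1 and Chac1. Fut1, a fucosyltransferase that builds the H antigen and related cell-surface glycans, was at 17.5, 5.30 and 15.4 CPM in WT and 1.22, 0.502 and 0.986 CPM in KO (log2 fold change -3.81, SE 0.479, adjusted p = 0.000492). Nupr1, a small chromatin protein induced by stress, (chr7:126623249-126630861) was at 64.5, 55.5 and 69.6 CPM in WT and 7.26, 5.50 and 6.06 CPM in KO (log2 fold change -3.33, SE 0.433, adjusted p = 0.000639). Chac1, a glutathione-degrading enzyme, was at 107, 47.0 and 104 CPM in WT and 9.78, 8.40 and 8.82 CPM in KO (log2 fold change -3.26, SE 0.497, adjusted p = 0.00158). In all 3 genes the KO libraries lay together well below WT, and WT replicate 2 was the lowest of the WT libraries.

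Galk1, which phosphorylates galactose in the first step of its use, (chr11:116008457-116012719) was at 230.3, 150.4 and 169.6 CPM in WT and 30.4, 28.9 and 28.4 CPM in KO (log2 fold change -2.65, SE 0.169, adjusted p = 5.48e-06). Nt5dc2, a member of the 5'-nucleotidase domain family, was at 326, 173 and 296 CPM in WT and 50.1, 48.2 and 46.5 CPM in KO (log2 fold change -2.46, SE 0.266, adjusted p = 0.000215). The 3 KO libraries differed little among themselves in both genes, and no KO value reached the lowest WT value. Grb10, an imprinted adaptor that dampens insulin and IGF receptor signalling, was at 316, 203 and 414 CPM in WT and 81.3, 44.7 and 46.3 CPM in KO (log2 fold change -2.44, SE 0.342, adjusted p = 0.000987). Pck2, the mitochondrial PEP carboxykinase, was at 158, 44.4 and 161 CPM in WT and 25.5, 19.8 and 23.0 CPM in KO (log2 fold change -2.41, SE 0.385, adjusted p = 0.00209). WT replicate 2 stood nearer to the KO libraries than to the other WT libraries in Pck2. Pck2 and Nt5dc2 lie on chromosome 14, the chromosome that was low in that library. What part the chromosome has in their values was not tested.

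Also among the 15 lowest fold changes were Mef2b (-2.84 ± 0.497 SE), the MHC class I gene H2-Q4 (-2.43 ± 0.454), the hyaluronan link protein gene Hapln4 (-2.36 ± 0.503), the epithelial clathrin adaptor Ap1m2 (-2.36 ± 0.263) and Miip (-2.35 ± 0.399), all as log2 fold changes. Adgrg1, an adhesion receptor, fell by 2.31 (adjusted p = 0.0275), and that call was lost without WT replicate 1, WT replicate 3, KO replicate 1, KO replicate 2 or KO replicate 3 (adjusted p = 0.0703, 0.0751, 0.104, 0.0818 and 0.0518) and with no filter on low counts (0.118). Serpinf1, which encodes the secreted factor PEDF, fell by 2.59 (adjusted p = 0.0158), lost without WT replicate 1, KO replicate 1 or KO replicate 2 (adjusted p = 0.0581, 0.0629 and 0.0558) and with no filter on low counts (0.0744). Ubap1l fell by 2.86 (adjusted p = 0.0151), lost without KO replicate 1 or KO replicate 2 (adjusted p = 0.0680 and 0.0547) and with no filter on low counts (0.0741).

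The list of ATF4 and stress-response targets, Atf4 included, was the one that fell most often, among lists chosen with earlier results of these data known. Of 26 members tested, 18 fell and none rose, against 7.90% of all genes falling, and the median log2 fold change was -1.41 against 0.00 for all genes. The call held for 12 of the 18 whichever library was left out, and the count was 12 without WT replicate 1 and 13 to 19 without any other library. Atf4 itself was at 648, 494 and 609.9 CPM in WT and 185, 173 and 194 CPM in KO (log2 fold change -1.66, SE 0.171, adjusted p = 0.000159). Trib3, a pseudokinase that feeds back on ATF4, was at 129.6, 68.2 and 113 CPM in WT and 24.2, 20.8 and 22.6 CPM in KO (log2 fold change -2.20, SE 0.388, adjusted p = 0.00360). In both genes every KO library was far below the lowest WT library, and the KO libraries lay close together.

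Asns, asparagine synthetase, was at 446, 395 and 449 CPM in WT and 173, 198 and 199.8 CPM in KO (log2 fold change -1.18, SE 0.108, adjusted p = 8.43e-05). Psat1, which makes phosphoserine, was at 776, 429 and 762 CPM in WT and 261, 195 and 277 CPM in KO (log2 fold change -1.42, SE 0.249, adjusted p = 0.00346). The KO and WT libraries did not overlap in either gene, and WT replicate 2 was again the lowest of the WT libraries. Members that were not called were Ddit3 (-0.97 ± 0.440), Cebpb (-1.58 ± 0.675), Cebpg (-0.19 ± 0.147), Atf5 (-0.30 ± 0.265), Sesn2 (-0.03 ± 0.153), Slc7a11 (-0.66 ± 0.261), Stc2 (-1.86 ± 0.603) and Ddit4 (-0.86 ± 0.345), as log2 fold changes ± SE. Without WT replicate 2, Stc2 (log2 fold change -2.11, adjusted p = 0.0389) and Ddit4 (-1.15, adjusted p = 0.0246) were called as well. With only the 6 EpiLC libraries Ddit3 (-0.95, adjusted p = 0.038), Cebpb (-1.56, adjusted p = 0.0307), Slc7a11 (-0.64, adjusted p = 0.048) and Stc2 (-1.84, adjusted p = 0.00637) were called, and Stc2 was also called by DESeq2 (adjusted p = 0.0423). Ddit3 and Cebpb encode CHOP and C/EBP beta, which act beside ATF4 in a stress response.

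Promoter windows of genes that fell in the KO libraries were read for the letters TGATGCAA, the core of the composite element that ATF4 binds with a C/EBP partner, on both strands (TTGCATCA on the other). Of 32851 RefSeq windows of the same length, 294 (0.895%) held the letters, as did 91 of 15666 windows (0.581%) of the genes tested. They were in 24 of 1419 windows (1.69%) of genes that fell and in 5 of 1156 (0.433%) of genes that rose. In the ATF4 list, where 18 of 26 members tested fell, 8 of 24 genes with a window held them, and 7 of the 8 fell. The other was Slc7a11, whose window held them at 2 places and which was not called, while Asns, Psat1 and Trib3 fell and their windows did not hold them. The windows of Nupr1, Chac1 and Atf3 from that list, of Got1, which makes aspartate from oxaloacetate and glutamate, and of Aars, the alanyl-tRNA synthetase, are shown because their genes fell and the letters lie within 250 bases before the start site. Each runs 5′ to 3′ on the gene's strand, from 250 bases before to 50 bases after the start (RefSeq, GRCm38.p6), with the matched letters in capitals.
Nupr1: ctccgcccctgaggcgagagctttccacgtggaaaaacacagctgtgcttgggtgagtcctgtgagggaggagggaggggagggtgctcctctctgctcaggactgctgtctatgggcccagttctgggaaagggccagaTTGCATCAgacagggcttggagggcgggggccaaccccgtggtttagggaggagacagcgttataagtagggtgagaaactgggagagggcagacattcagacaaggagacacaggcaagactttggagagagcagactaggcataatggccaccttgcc
Chac1: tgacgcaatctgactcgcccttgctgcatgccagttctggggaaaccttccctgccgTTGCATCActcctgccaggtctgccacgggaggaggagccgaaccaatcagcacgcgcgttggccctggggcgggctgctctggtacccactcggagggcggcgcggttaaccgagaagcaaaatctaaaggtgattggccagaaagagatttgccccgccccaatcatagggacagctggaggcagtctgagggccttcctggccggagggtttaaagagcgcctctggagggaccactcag
Atf3: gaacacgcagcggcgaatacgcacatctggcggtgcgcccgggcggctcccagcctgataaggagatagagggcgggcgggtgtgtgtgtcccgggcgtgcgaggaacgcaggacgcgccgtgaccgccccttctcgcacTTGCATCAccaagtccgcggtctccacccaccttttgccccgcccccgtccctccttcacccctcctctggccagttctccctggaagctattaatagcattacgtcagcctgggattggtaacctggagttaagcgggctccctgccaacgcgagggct
Got1: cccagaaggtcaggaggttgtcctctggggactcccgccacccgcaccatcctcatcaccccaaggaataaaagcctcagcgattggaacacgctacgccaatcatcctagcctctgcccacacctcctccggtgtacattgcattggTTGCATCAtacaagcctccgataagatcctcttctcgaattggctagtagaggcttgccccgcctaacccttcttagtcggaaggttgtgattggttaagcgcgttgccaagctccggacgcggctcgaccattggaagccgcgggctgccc
Aars: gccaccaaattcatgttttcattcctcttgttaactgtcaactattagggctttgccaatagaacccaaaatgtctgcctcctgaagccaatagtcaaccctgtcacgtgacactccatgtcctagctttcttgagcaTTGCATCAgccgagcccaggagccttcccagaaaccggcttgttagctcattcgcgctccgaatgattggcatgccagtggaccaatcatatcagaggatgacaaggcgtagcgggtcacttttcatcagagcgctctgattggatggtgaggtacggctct

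The windows lie at chr7:126625421-126625720 (minus strand, Nupr1), chr2:119350992-119351291 (plus strand, Chac1), chr1:191183284-191183583 (minus strand, Atf3), chr19:43524556-43524855 (minus strand, Got1) and chr8:111033592-111033891 (plus strand, Aars). In each the letters read TTGCATCA on the gene's strand, and they start 110 bases before the start site in Nupr1 and Atf3, 193 in Chac1, 102 in Got1 and 112 in Aars. A match is only a run of letters, and no binding was measured here. Atf3, an early-response factor, was at 9.24, 5.34 and 11.7 CPM in WT and 3.56, 1.56 and 2.06 CPM in KO (log2 fold change -1.87, SE 0.548, adjusted p = 0.0386), a call that was lost without WT replicate 1, WT replicate 3, KO replicate 1, KO replicate 2 or KO replicate 3 (adjusted p = 0.0876, 0.112, 0.0552, 0.120 and 0.112) and with no filter on low counts (0.128). Atf3 is also a gene that handling of cells can induce, and among 10 RNA-quality and handling genes, Atf3 included, Atf3 was the 1 that fell and 1 rose, a call that was not kept throughout. Their part in the Atf3 result was not tested.

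**Figure D2:**
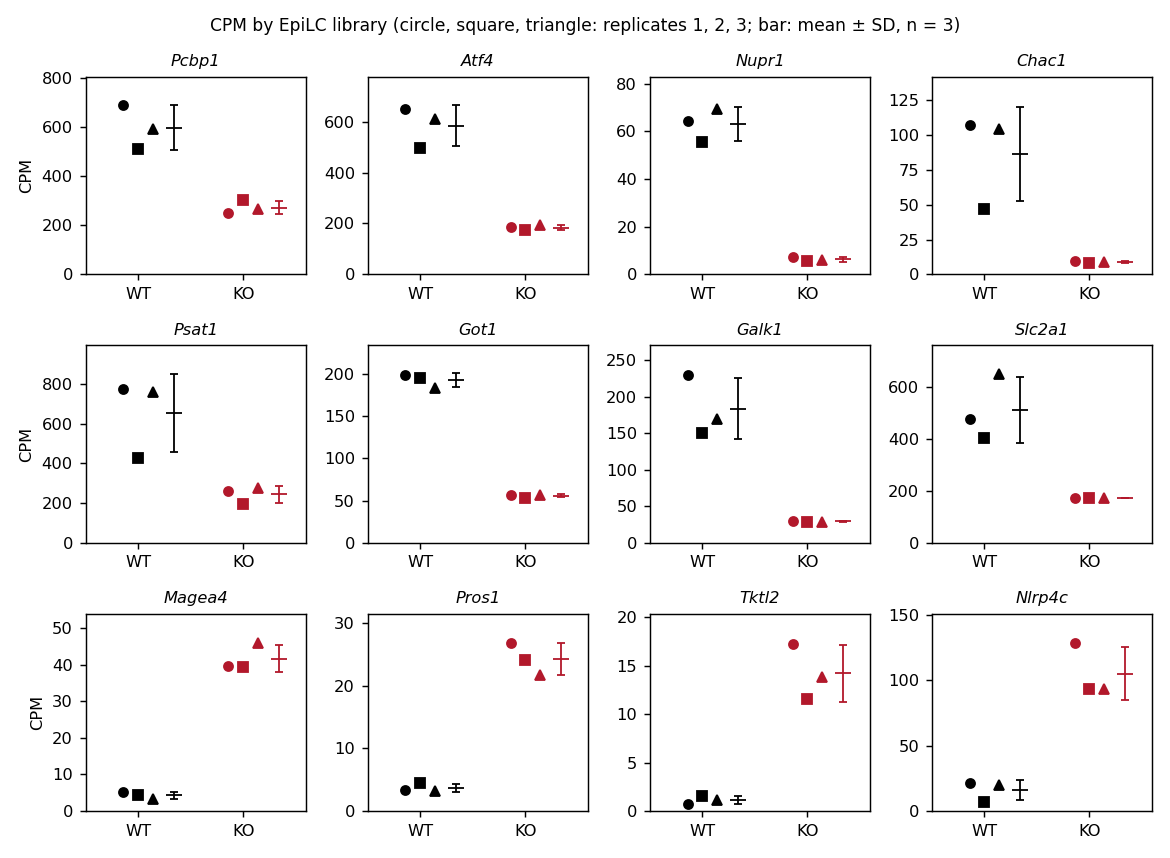
CPM of 12 genes in each EpiLC library (y axis, from 0), with WT libraries in black and KO libraries in red, circles, squares and triangles for replicates 1, 2 and 3, and bars for the mean ± SD (n = 3). KO and WT do not overlap in any of the 12, and the WT square is the lowest of the WT libraries for Pcbp1, Atf4, Nupr1, Chac1, Psat1, Galk1 and Slc2a1.

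Enzymes that make serine, glycine and one-carbon units fell. Of 21 tested, 11 fell and none rose, with 8 of the 11 called whichever library was left out. Phgdh, the first enzyme of serine synthesis from glucose, was at 219.9, 187 and 215 CPM in WT and 65.9, 59.5 and 69.8 CPM in KO (log2 fold change -1.67, SE 0.312, adjusted p = 0.00475). Shmt2, which makes glycine in mitochondria, was at 585, 355 and 524 CPM in WT and 156, 170.2 and 183 CPM in KO (log2 fold change -1.52, SE 0.212, adjusted p = 0.000935). Gldc, the decarboxylase of the glycine cleavage system, was at 580.1, 629 and 610.4 CPM in WT and 224, 233 and 289 CPM in KO (log2 fold change -1.29, SE 0.133, adjusted p = 0.000161). No KO library reached the lowest WT library in these 3 genes, and in Gldc the WT libraries were nearly level. Amt, the aminomethyltransferase of the same glycine cleavage system, fell by 0.81 (SE 0.108, adjusted p = 0.000673) and Aldh1l2, the mitochondrial formyl-tetrahydrofolate dehydrogenase, by 2.02 (SE 0.365, adjusted p = 0.00383).

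In the aspartate, glutamate, proline and arginine list, 8 of 24 members fell and none rose, 6 of them in every fit that left out a library. Got1 (chr19:43499752-43524605) was at 199, 195 and 184 CPM in WT and 56.6, 53.6 and 56.9 CPM in KO (log2 fold change -1.79, SE 0.0867, adjusted p = 7.54e-07). Gpt2, the mitochondrial alanine transaminase, was at 251, 146 and 261 CPM in WT and 70.3, 60.0 and 55.9 CPM in KO (log2 fold change -1.82, SE 0.330, adjusted p = 0.00413). Aldh18a1, the first enzyme of proline synthesis, was at 212, 113 and 205 CPM in WT and 68.5, 60.9 and 62.5 CPM in KO (log2 fold change -1.47, SE 0.264, adjusted p = 0.00394). Got1 and Aldh18a1 lie on chromosome 19, whose genes differed among the KO libraries. The 3 KO values of each gene were nearly level, and what part the chromosome has in them was not tested. Pycr1, the last enzyme of proline synthesis, fell by 1.70 (SE 0.331) and Asl, argininosuccinate lyase, by 0.84 (SE 0.162).

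Of 22 genes of threonine, lysine and branched-chain amino acid use, 7 fell and 1 rose, and the fallen count was 4 without WT replicate 2, KO replicate 1 or KO replicate 2. Bcat1, the cytosolic branched-chain transaminase, was at 587, 477 and 437 CPM in WT and 243, 265 and 329.7 CPM in KO (log2 fold change -0.84, SE 0.129, adjusted p = 0.00153), and Bckdk, the kinase that inhibits branched-chain ketoacid breakdown, fell by 0.53 (SE 0.0777). Aass, which starts lysine breakdown, went the other way, from 17.7, 8.70 and 10.7 CPM in WT to 41.9, 55.6 and 30.6 CPM in KO (log2 fold change 1.78, SE 0.350, adjusted p = 0.00616). Among 21 methionine, cysteine and glutathione genes 3 fell, Chac1 with Csad (-1.41 ± 0.244), which makes hypotaurine from cysteine sulfinate, and Cth (-1.08 ± 0.291), the last step of transsulfuration. The Cth call was lost without WT replicate 2, KO replicate 1, KO replicate 2 or KO replicate 3 (adjusted p = 0.0742, 0.0631, 0.0793 and 0.0837) and with no filter on low counts (0.113).

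Amino acid transporters fell in 11 of 31 cases and none rose, but only 3 of the 11 were called in every fit that left out a library. The count was 7 without WT replicate 1 or WT replicate 3, 5 without KO replicate 1 and 4 without KO replicate 2. Slc1a5, a neutral amino acid exchanger that imports glutamine, was at 126, 111 and 105 CPM in WT and 45.8, 47.1 and 51.3 CPM in KO (log2 fold change -1.24, SE 0.192, adjusted p = 0.00159), with no overlap. Slc38a7, a lysosomal glutamine exporter, fell by 0.77 (SE 0.151) and Slc7a3, a transporter of arginine and lysine, by 0.53 (SE 0.113).

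Cytosolic aminoacyl-tRNA synthetases, which charge tRNAs, fell in 12 of 20 cases with none rising, and 9 of the 12 were called in every fit that left out a library. Their median log2 fold change was -0.51. Sars, for serine, was at 506, 293 and 441 CPM in WT and 159.7, 169 and 174 CPM in KO (log2 fold change -1.30, SE 0.197, adjusted p = 0.00147). Aars, for alanine, was at 1026, 692 and 917 CPM in WT and 419, 416 and 449 CPM in KO (log2 fold change -1.04, SE 0.161, adjusted p = 0.00161). KO and WT did not overlap in either gene. Yars (-0.94 ± 0.154), Cars (-0.89 ± 0.178), Qars (-0.54 ± 0.104) and Farsb (-0.41 ± 0.0850) fell as well. Of 17 mitochondrial synthetases 6 fell, a count of 3 without WT replicate 1, WT replicate 3, KO replicate 1 or KO replicate 3, with Sars2 (-0.58 ± 0.106) and Aars2 (-0.96 ± 0.212) called throughout.

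Transcripts of cytosolic ribosomal proteins changed little in size. Of 86 genes 7 fell and none rose, with a median of -0.18. The share that fell was 8.14%, against 7.90% of all genes and 13.17% of genes at 100 CPM or more. The count was 2 without WT replicate 1, 1 without KO replicate 1 and 2 without KO replicate 2. Eef2, elongation factor 2, was among the 12 largest falls in mean CPM, from 5932, 5154 and 5541 CPM in WT to 4498, 4265 and 4344 CPM in KO (log2 fold change -0.34, SE 0.0799, adjusted p = 0.0141). All 3 KO libraries lay below WT, by less than 2-fold. Eif2b3, a subunit of the exchange factor that recharges eIF2, was at 102, 89.0 and 94.6 CPM in WT and 52.3, 55.0 and 51.9 CPM in KO (log2 fold change -0.84, SE 0.0859, adjusted p = 0.000151). It was 1 of 3 genes that fell among 15 eIF2 kinases, phosphatases and eIF2B subunits, and 1 rose, but the other calls were not kept throughout. Of 77 mitochondrial ribosomal protein genes 10 fell, among them Mrps24 (-1.19 ± 0.171), Mrps23 (-0.78 ± 0.127) and Mrpl38 (-0.70 ± 0.101), and the count was 6 without WT replicate 1 and 5 without KO replicate 1.

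Glycolytic genes fell in 11 of 23 cases and none rose, with a median log2 fold change of -0.53. The count was 7 without KO replicate 1 and 14 without WT replicate 2, and 7 genes were called throughout. Slc2a1, the glucose transporter GLUT1, was at 478, 405 and 652 CPM in WT and 172, 173 and 173 CPM in KO (log2 fold change -1.57, SE 0.159, adjusted p = 0.000151). Hk1, the first kinase of the pathway, was at 78.1, 80.7 and 83.1 CPM in WT and 39.2, 39.3 and 41.4 CPM in KO (log2 fold change -1.01, SE 0.131, adjusted p = 0.000571). Aldoa, the main aldolase, was at 2914, 2300.5 and 2394 CPM in WT and 1430.2, 1658 and 1845 CPM in KO (log2 fold change -0.63, SE 0.120, adjusted p = 0.00531). The KO values of Slc2a1 and Hk1 were nearly identical among the 3 clones, while those of Aldoa spread more. Eno2 (-1.34 ± 0.258), Pfkp (-1.10 ± 0.230) and Hk2 (-0.53 ± 0.0988) fell too.

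Of 17 genes of galactose use and the pentose phosphate pathway, 7 fell and 2 rose. Beside Galk1, the fall included Galt (-0.89 ± 0.126), which follows it in galactose use, and the oxidative enzymes G6pdx (-1.01 ± 0.0992) and Pgd (-1.27 ± 0.153). G6pdx, the entry enzyme, was at 217, 193 and 198 CPM in WT and 105, 103 and 93.4 CPM in KO (adjusted p = 0.000121). Tktl2, a transketolase-like gene with testis expression, rose from 0.672, 1.53 and 1.10 CPM in WT to 17.3, 11.5 and 13.8 CPM in KO (log2 fold change 3.71, SE 0.345, adjusted p = 9.09e-05), while Tkt, the main transketolase, fell by 0.51 (SE 0.0884). No WT library reached the lowest KO library for Tktl2.

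In the citric acid cycle and pyruvate entry, 7 of 28 genes fell and none rose, and the count was 4 without KO replicate 1. Idh2, the mitochondrial NADP-dependent isocitrate dehydrogenase, was at 100.2, 135 and 109.7 CPM in WT and 37.8, 47.4 and 49.6 CPM in KO (log2 fold change -1.36, SE 0.142, adjusted p = 0.000170). Smaller falls were those of Cs (-0.48 ± 0.0755) and Idh3g (-0.50 ± 0.0922). Among the 80 nuclear-encoded respiratory chain and ATP synthase genes tested, 8 fell and none rose. That share was 10.0%, against 7.90% of all genes and 10.69% of genes at 10 to 100 CPM. The count was 3 without WT replicate 1 or KO replicate 1, 4 without KO replicate 2 and 5 without WT replicate 2. None of the 7 mitochondrially encoded genes tested was called. Their other 6 genes were listed at 0 counts.

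Of 15 fatty acid synthesis genes 3 fell, with Srebf1 (-0.66 ± 0.0918), a lipogenic transcription factor, and Scd1 (-0.72 ± 0.142), a desaturase, called throughout. Of 23 cholesterol synthesis genes 4 fell and none of those calls held in every fit that left out a library, with 2 without WT replicate 1, none without WT replicate 3 or KO replicate 3 and 1 without KO replicate 1. Of 24 nucleotide synthesis genes 7 fell, a count of 4 without WT replicate 1 or WT replicate 3 and 3 without KO replicate 1 or KO replicate 3, and 2 held in every fit. Tk1, the S-phase thymidine kinase, was at 145, 119 and 118 CPM in WT and 67.8, 71.2 and 61.7 CPM in KO (log2 fold change -0.93, SE 0.150, adjusted p = 0.00208). Of 17 hypoxia-response genes 6 fell and 1 rose. Vegfa, the angiogenic growth factor, was at 53.4, 46.8 and 71.2 CPM in WT and 18.6, 17.1 and 12.2 CPM in KO (log2 fold change -1.84, SE 0.287, adjusted p = 0.00181), and Ndrg1 (-1.36 ± 0.257) and Egln3 (-0.80 ± 0.178) fell with it. Slc2a1 also stands in that list.

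**Figure D3:**
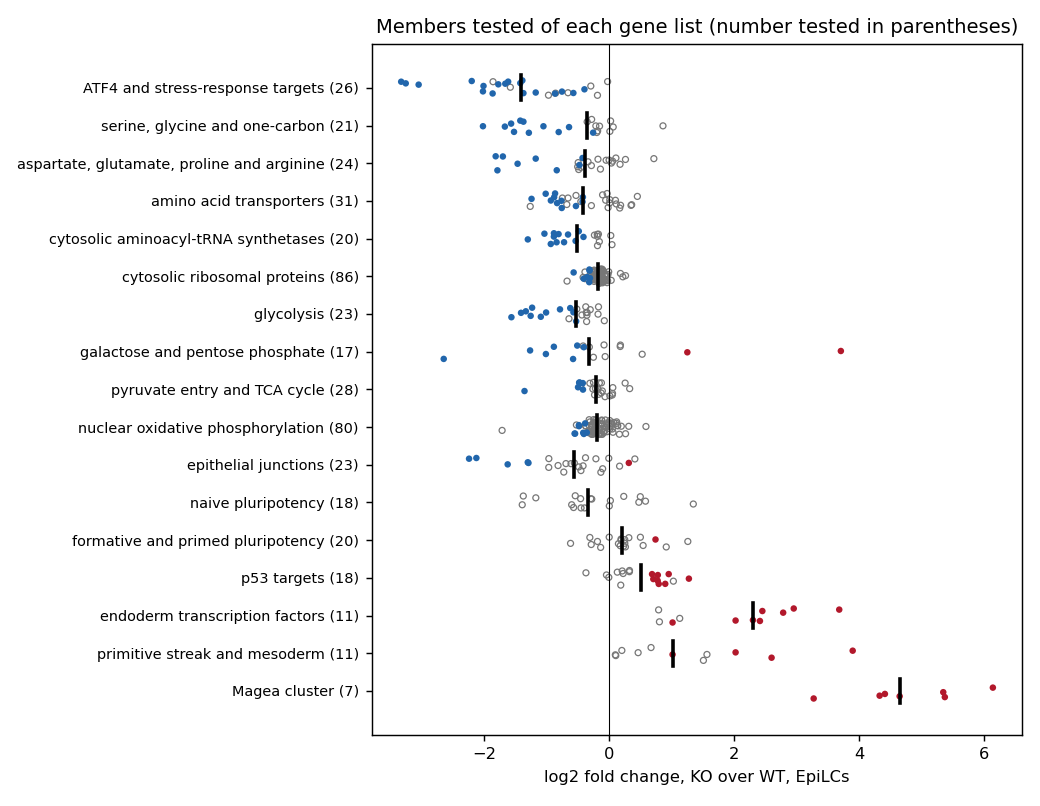
Log2 fold change (KO over WT, x axis) of every tested member of 17 gene lists; filled red and blue points rose or fell at an adjusted p under 0.05, open points were not called, and black bars are medians. The ATF4 list has its median at -1.41 and the cytosolic ribosomal proteins at -0.18, while the Magea cluster has its median at 4.65.

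Among the 15 highest fold changes of genes with a mean of at least 5 CPM, 7 were those of the Magea cluster, cancer-testis genes on the X chromosome that are silent in most adult tissues. All 7 members tested rose, against 7.14% of all genes, with a median log2 fold change of 4.65. Magea1, with 0 counts in the 3 WT libraries and 1 in the 3 KO libraries, was not tested. A member near silent in WT could pass the filter on low counts through KO libraries alone. Magea8 was at 0.726, 2.02 and 0.432 CPM in WT and 45.3, 23.0 and 60.1 CPM in KO (log2 fold change 5.37, SE 0.635, adjusted p = 0.000381). Magea4 was at 5.29, 4.26 and 3.33 CPM in WT and 39.5, 39.4 and 45.9 CPM in KO (log2 fold change 3.27, SE 0.186, adjusted p = 1.81e-06). Every KO library lay above every WT library in both, and WT replicate 2 was the highest WT library for Magea8 but not for Magea4. The members are near-identical copies, so reads can be assigned to the wrong copy. Their separate values are uncertain and the 7 calls are not independent.

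Other genes among the 15 highest were unrelated to that cluster. Pros1, the anticoagulant protein S, was at 3.39, 4.41 and 3.26 CPM in WT and 26.8, 24.2 and 21.8 CPM in KO (log2 fold change 2.72, SE 0.149, adjusted p = 1.73e-06). Nlrp4c, an oocyte-expressed NLR gene, was at 21.2, 7.13 and 19.9 CPM in WT and 128, 93.1 and 93.6 CPM in KO (log2 fold change 2.70, SE 0.380, adjusted p = 0.00100). Scml2, a germline Polycomb-related protein on the X chromosome, was at 7.36, 27.8 and 6.22 CPM in WT and 110.4, 80.8 and 103 CPM in KO (log2 fold change 2.84, SE 0.551, adjusted p = 0.00593). The groups did not overlap in these 3 genes, and WT replicate 2 was the highest WT library for Scml2 and Pros1 and the lowest for Nlrp4c. Nrcam, a neural adhesion molecule, rose by 3.07 (SE 0.482), Mep1b, a metalloprotease, by 2.92 (SE 0.511) and Sall3, a zinc-finger factor, by 2.77 (SE 0.488). Cubn and Tktl2 complete the set and are described with their lists.

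The largest rises in mean CPM were in other genes. Car2, carbonic anhydrase 2, was at 193, 118 and 129 CPM in WT and 379, 371 and 273 CPM in KO (log2 fold change 1.21, SE 0.177, adjusted p = 0.00121). Hnrnph1, a splicing regulator, was at 440.3, 444 and 457 CPM in WT and 685, 602 and 581 CPM in KO (log2 fold change 0.48, SE 0.0883, adjusted p = 0.00433). The KO libraries lay above the WT libraries in both, by more in Car2. The endoplasmic reticulum chaperones and folding enzymes Hsp90b1 (0.49 ± 0.100), Pdia3 (0.51 ± 0.0821) and Mlec (0.58 ± 0.0768) rose by less than 2-fold. Bclaf1 (0.47 ± 0.126), Bzw1 (0.35 ± 0.0926), Ctnnb1 (0.31 ± 0.0868), Eif4g2 (0.30 ± 0.0735) and Canx (0.43 ± 0.0965) rose too, but their calls were not kept throughout. They were lost for Bclaf1 without WT replicate 1, WT replicate 3, KO replicate 1, KO replicate 2 or KO replicate 3 (adjusted p = 0.0675, 0.0719, 0.0903, 0.0515 and 0.0643) and with only the 6 EpiLC libraries (0.0781), for Bzw1 without WT replicate 1, WT replicate 3, KO replicate 1 or KO replicate 3 (adjusted p = 0.0715, 0.0738, 0.0916 and 0.0724) and with only the 6 EpiLC libraries (0.0501) and for Ctnnb1 without WT replicate 1, WT replicate 3, KO replicate 1 or KO replicate 3 (adjusted p = 0.0509, 0.109, 0.0717 and 0.102) and with only the 6 EpiLC libraries (0.0581). For Eif4g2 the call was lost without WT replicate 3, KO replicate 1 or KO replicate 3 (adjusted p = 0.0593, 0.0579 and 0.0588) and for Canx without KO replicate 1 (adjusted p = 0.0586).

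Among the largest falls in mean CPM, beside genes already described, Fkbp4, an HSP90 co-chaperone, was at 1332, 1067 and 1071 CPM in WT and 711, 749 and 792 CPM in KO (log2 fold change -0.62, SE 0.0951, adjusted p = 0.00151). Hdgf, a nuclear growth factor, fell by 0.61 (SE 0.0935). Flna (-0.52 ± 0.161), an actin crosslinker, was lost without WT replicate 1, WT replicate 3, KO replicate 1, KO replicate 2 or KO replicate 3 (adjusted p = 0.153, 0.142, 0.115, 0.0871 and 0.136) and with RLE size factors, with no filter on low counts, with a stricter filter or with only the 6 EpiLC libraries (0.0539, 0.0879, 0.0636 and 0.0619). Mkrn1 (-0.60 ± 0.155), a ubiquitin ligase, was lost without WT replicate 1, KO replicate 1 or KO replicate 3 (adjusted p = 0.0552, 0.0920 and 0.0518). Rpsa (-0.32 ± 0.0867), a ribosomal protein, was lost without WT replicate 1, KO replicate 1 or KO replicate 2 (adjusted p = 0.0896, 0.0865 and 0.0875) and with only the 6 EpiLC libraries (0.0858).

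Naive pluripotency genes showed no called change with all 6 libraries, a result that moved in either direction with single libraries. Of 18 members tested none was called and the median log2 fold change was -0.35. Without WT replicate 2, 5 rose and none fell, beside 8.65% of all genes rising and 8.39% falling in that fit, and the median was 0.37. Without WT replicate 3, 2 fell, and without KO replicate 3, 1 fell. The summed CPM of the list was 1340 to 2451 in the WT libraries, highest in replicate 2, and 1200 to 1629 in the KO libraries. In a bulk library, fewer cells of a type and less RNA per cell cannot be told apart.

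Tbx3, a naive T-box factor, was at 2.18, 15.5 and 1.63 CPM in WT and 11.6, 13.7 and 22.9 CPM in KO. WT replicate 2 lay inside the KO range and the other WT libraries far below it. The log2 fold change was 1.34 (SE 0.605, adjusted p = 0.156) with it and 3.06 (adjusted p = 0.000105) without it. Nanog, which holds naive cells undifferentiated, was at 34.8, 93.5 and 36.8 CPM in WT and 88.4, 70.2 and 70.2 CPM in KO, with 0.47 (adjusted p = 0.303) and 1.09 (adjusted p = 0.000220) with and without that library. Zfp42, or Rex1, a common naive marker, was at 38.1, 175 and 35.0 CPM in WT and 43.6, 54.7 and 82.5 CPM in KO, and its log2 fold change was -0.45 (adjusted p = 0.570) with and 0.72 (adjusted p = 0.0313) without the library. Klf4 (1.30, adjusted p = 0.00805) and Tcl1 (0.99, adjusted p = 0.0358) were the others called without it. Esrrb, at 63.7, 215 and 56.3 CPM in WT and 31.6, 42.5 and 74.1 CPM in KO, was not called in either fit (adjusted p = 0.0869 and 0.473), with KO replicates 1 and 2 below every WT library and KO replicate 3 among them. Without WT replicate 3 it fell by 1.50 (adjusted p = 0.0418).

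Of 10 core pluripotency genes none was called with all libraries and 3 rose without WT replicate 2, namely Sox2 (0.67, adjusted p = 0.0128), Zfp281 (0.47, adjusted p = 0.0184) and L1td1 (0.37, adjusted p = 0.0484). Pou5f1, the defining factor of pluripotent cells, was at 739.7, 561 and 565 CPM in WT and 815, 694 and 651 CPM in KO and was not called in either fit (log2 fold change 0.21, SE 0.132). Of 20 formative genes, 1 rose and none fell. That gene was Etv1, an FGF-responsive ETS factor (log2 fold change 0.74, SE 0.205, adjusted p = 0.0310), and its call was lost without WT replicate 3, KO replicate 1 or KO replicate 3 (adjusted p = 0.108, 0.0778 and 0.107). Otx2, the head and epiblast homeobox factor, was at 235, 240.3 and 208 CPM in WT and 139, 133 and 172 CPM in KO, where the groups did not overlap, but the change was not called (log2 fold change -0.62, SE 0.358, adjusted p = 0.270) except with only the 6 EpiLC libraries (-0.60, adjusted p = 0.0208). Dnmt3b, a de novo DNA methyltransferase that rises in EpiLCs, was at 2911, 1536 and 2604 CPM in WT and 1933, 1843 and 1907 CPM in KO and overlapped (log2 fold change -0.31, SE 0.264, adjusted p = 0.467). None of 9 DNA methylation genes was called with all libraries and 1 fell without WT replicate 2.

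**Figure D4:**
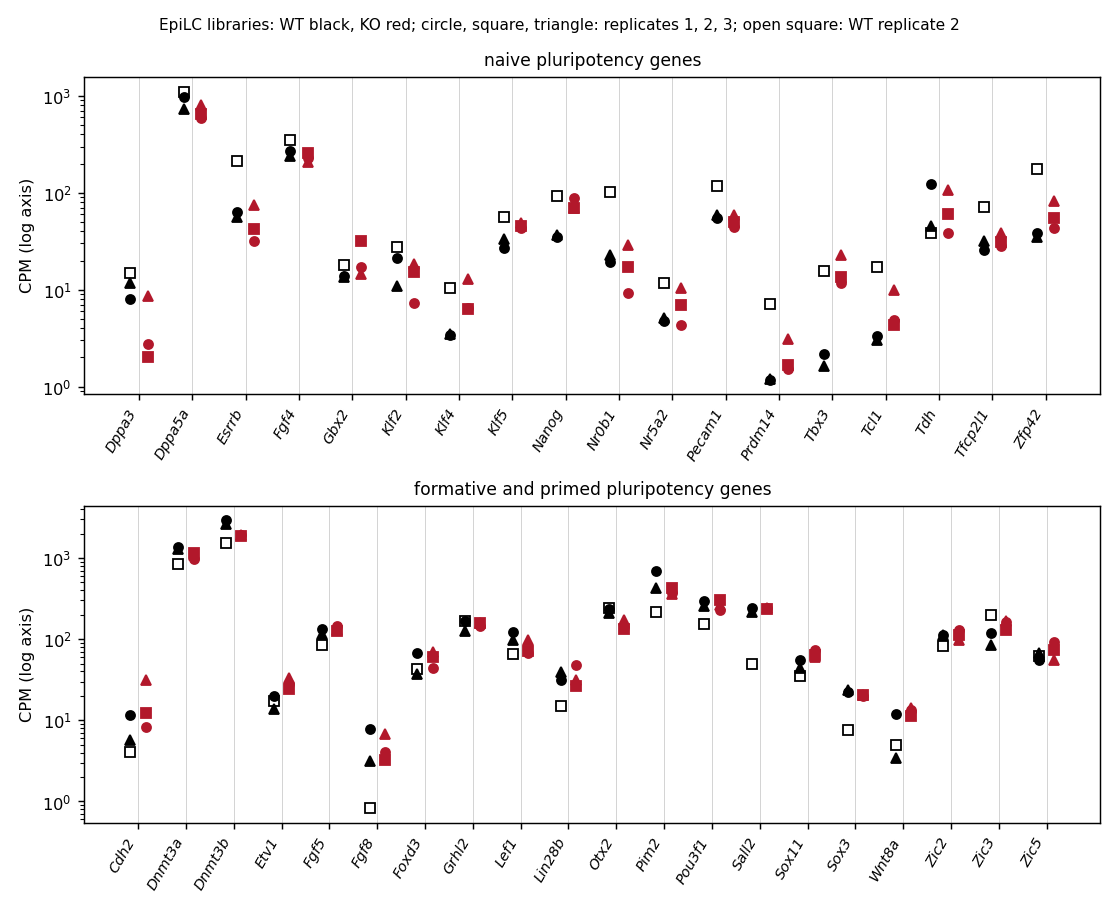
CPM (log y axis) of the 18 naive and 20 formative genes in each EpiLC library, with WT in black and KO in red and an open square for WT replicate 2. For most naive genes the open square lies above the other WT points, as for Zfp42, and for Sall2 and Dnmt3b among the formative genes it lies below them.

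Signalling genes changed singly, where 7.14% of all genes rose and 7.90% fell. Spry2, an inhibitor of receptor tyrosine kinase signalling that ERK induces, was at 24.9, 27.7 and 20.1 CPM in WT and 56.8, 72.1 and 46.0 CPM in KO (log2 fold change 1.27, SE 0.183, adjusted p = 0.00112), and no other member of the 15 ERK-response genes rose, while 3 fell. The fallen count was 1 without KO replicate 3, and 2 rose without WT replicate 1. Of the 3, Ier3, an immediate early gene, fell by 1.50 (SE 0.308), and Etv5 fell by 0.29 (SE 0.0736), a call lost without WT replicate 1, KO replicate 2 or KO replicate 3 (adjusted p = 0.0552, 0.0604 and 0.0712) and with only the 6 EpiLC libraries (0.0792). Foxh1, the partner of SMAD2 in NODAL responses, was at 124, 94.8 and 103 CPM in WT and 40.7, 42.7 and 48.5 CPM in KO (log2 fold change -1.29, SE 0.137, adjusted p = 0.000177). It was 1 of 2 NODAL and activin pathway genes that fell, of 16, and the other fell only with all 6 libraries or without WT replicate 2. KO and WT did not overlap in Spry2 or Foxh1.

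In the BMP pathway 4 of 17 genes rose (23.5%, against 7.14% of all genes). Of those calls 1, that of Smad5 (0.88 ± 0.147), an effector of BMP receptors, held in every fit that left out a library. Dkk1, a secreted WNT antagonist, was at 0.134, 0.486 and 0.133 CPM in WT and 2.30, 3.28 and 1.97 CPM in KO (log2 fold change 3.36, SE 0.603, adjusted p = 0.00373), and Tcf7l2, a WNT effector, rose by 1.00 (SE 0.202). They were the 2 of 14 WNT genes that rose. Dll1, a Notch ligand, was at 23.8, 22.1 and 31.0 CPM in WT and 57.1, 53.5 and 56.2 CPM in KO (log2 fold change 1.12, SE 0.165, adjusted p = 0.00128). Amot, a scaffold of the Hippo pathway at junctions, was at 8.95, 7.96 and 8.94 CPM in WT and 49.6, 44.9 and 32.1 CPM in KO (log2 fold change 2.29, SE 0.276, adjusted p = 0.000384). The groups were apart in Dkk1, Dll1 and Amot, though Dkk1 stayed at a few CPM in KO. Near silent in WT, Dkk1 could pass the filter on low counts through KO libraries alone.

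Of 29 ephrins, semaphorins and their receptors 8 rose and 2 fell, where 7.14% of all genes rose and 7.90% fell. But the risen count was 4 without WT replicate 1, WT replicate 3, KO replicate 2 or KO replicate 3, and 3 without KO replicate 1. Epha7, an ephrin receptor, was at 3.20, 10.0 and 6.78 CPM in WT and 2.96, 1.90 and 1.75 CPM in KO (log2 fold change -1.59, SE 0.350, adjusted p = 0.0105), with WT replicate 1 close to the KO libraries. Efnb2 (0.68 ± 0.126), an ephrin ligand, rose.

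Epithelial junction genes fell in 5 of 23 cases and 1 rose, where 7.90% of all genes fell and 7.14% rose. Their median log2 fold change was -0.56. All 5 falls held in every fit that left out a library, and 8 fell without WT replicate 2. Tjp3, the tight junction scaffold ZO-3, was at 20.0, 22.0 and 28.6 CPM in WT and 5.69, 5.58 and 3.61 CPM in KO (log2 fold change -2.24, SE 0.245, adjusted p = 0.000204). Cldn4, a tight junction claudin, was at 84.6, 132 and 98.0 CPM in WT and 43.3, 38.9 and 46.3 CPM in KO (log2 fold change -1.29, SE 0.167, adjusted p = 0.000569). Krt18, a keratin of simple epithelia, was at 76.8, 82.6 and 95.8 CPM in WT and 29.4, 23.6 and 29.6 CPM in KO (log2 fold change -1.63, SE 0.248, adjusted p = 0.00151). The groups were apart in these 3 genes. Cldn7 (-2.13 ± 0.416) and Cldn3 (-1.30 ± 0.280) were the others. Tjp3 overlaps Apba3 in the annotation, and reads of both cannot be told apart. The gene that rose was Ctnnb1, encoding beta-catenin, described above.

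Of 16 actin and SRF-target genes 5 fell (31.2%, against 7.90% of all genes) and none rose. The count was 3 without WT replicate 1, KO replicate 1 or KO replicate 3 and 2 without WT replicate 3 or KO replicate 2. Actn3, a muscle alpha-actinin (-1.53 ± 0.239), and Cnn2, calponin 2 (-1.08 ± 0.195), were called throughout. Among 16 basement membrane genes, Lama1, the laminin alpha-1 chain, was at 4.30, 9.45 and 6.88 CPM in WT and 55.4, 46.4 and 21.1 CPM in KO (log2 fold change 2.59, SE 0.364, adjusted p = 0.00100), while Lamb2 fell by 0.89 (SE 0.194) and 1 more gene fell. The Lamb2 call was lost with only the 6 EpiLC libraries (adjusted p = 0.0501). Lama1 is also a product of endoderm cells of the early embryo, whose factors moved as follows.

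Endoderm transcription factors rose at low levels. Of 11 tested, 8 rose and none fell, with a median log2 fold change of 2.30, and the count was 5 without WT replicate 1 and 9 without WT replicate 2. The summed CPM of the list was 10.4 to 25.2 in the WT libraries, highest in replicate 2, and 42.8 to 45.4 in the KO libraries. Gata4, a zinc-finger factor of endoderm and heart, was at 0.296, 0.822 and 0.499 CPM in WT and 2.53, 4.10 and 1.86 CPM in KO (log2 fold change 2.41, SE 0.450, adjusted p = 0.00449). Sox17, needed for definitive endoderm, was at 0.107, 0.336 and 0.200 CPM in WT and 0.850, 1.48 and 1.13 CPM in KO (log2 fold change 2.45, SE 0.436, adjusted p = 0.00359). Foxa2 (2.78 ± 0.486) and Sox7 (2.95 ± 0.560) were also called throughout. All stood at a few CPM or less in KO, and none of these genes overlapped between the groups. As in the Magea cluster, a member near silent in WT could pass the filter on low counts through KO libraries alone. Gata4 and Sox7 lie on chromosome 14, where 74 of 611 genes tested rose (12.1%) and 11 fell (1.8%). The median log2 fold change of that chromosome was 0.23, and its part in these rises was not tested.

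Gata6, an inducer of primitive endoderm, was at 0.618, 4.71 and 0.466 CPM in WT and 7.30, 10.5 and 10.3 CPM in KO (log2 fold change 2.30, SE 0.699, adjusted p = 0.0447), with WT replicate 2 between the groups. The call was lost without WT replicate 1, WT replicate 3, KO replicate 1, KO replicate 2 or KO replicate 3 (adjusted p = 0.127, 0.110, 0.0812, 0.0928 and 0.0957) and with no filter on low counts or with only the 6 EpiLC libraries (0.167 and 0.0893), and without WT replicate 2 the log2 fold change was 4.09 (adjusted p = 0.000296). Visceral endoderm products moved less uniformly, with 2 of 11 rising and 1 falling, the fall lost without WT replicate 2, KO replicate 1 or KO replicate 2. Their summed CPM was 944 to 1222 in the WT libraries and 872 to 961 in the KO libraries. Afp, alpha-fetoprotein, was at 0.134, 0.0747 and 0.133 CPM in WT and 2.00, 1.64 and 2.62 CPM in KO (log2 fold change 4.12, SE 0.639, adjusted p = 0.00161). Cubn, an endocytic receptor, was at 1.18, 3.32 and 1.03 CPM in WT and 11.4, 14.8 and 13.5 CPM in KO (log2 fold change 2.85, SE 0.391, adjusted p = 0.000829). Both were higher in every KO library. Afp was near silent in WT and could pass the filter on low counts through KO libraries alone. Lrp2 (-0.29) and Dab2 (0.79), partners of Cubn, were not called, and Apoa4 had 0 counts in both groups.

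Primitive streak and mesoderm genes rose in 4 of 11 cases, led by Lhx1 (3.90 ± 0.658), a factor of axial mesendoderm, and Evx1 (2.60 ± 0.587). The list's summed CPM was 9.21 to 16.1 in WT and 23.9 to 29.7 in KO. Here too, members near silent in WT could pass the filter on low counts through KO libraries alone. T (0.10) and Mixl1 (0.10), the common streak markers, were not called. Of 8 neuroectoderm genes Sox21 rose (2.02 ± 0.398), on chromosome 14, of 9 trophoblast genes 1 rose (lost without WT replicate 1, WT replicate 3, KO replicate 1 or KO replicate 3), and of 6 fibroblast genes Pdgfra rose (2.55 ± 0.455), which endoderm also makes. The fibroblast list summed to 12.1 to 25.8 CPM in WT and 29.1 to 43.9 CPM in KO. Of 6 genes of the 2-cell-like state 2 rose, a count of 3 without KO replicate 3 and of 0 without any other EpiLC library, and their sum was 41.2 CPM in KO replicate 2 against 8.45 and 3.01 CPM in the other KO libraries. What part cells of other types have in the results above was not tested.

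Targets of p53 rose. Of 18 tested, 8 rose and none fell, against 7.14% of all genes rising, with a median log2 fold change of 0.50, and 6 of the 8 held in every fit that left out a library. Mdm2, the ubiquitin ligase that degrades p53, was at 151, 176 and 161 CPM in WT and 267, 252 and 276 CPM in KO (log2 fold change 0.70, SE 0.0926, adjusted p = 0.000634). Cdkn1a, the CDK inhibitor p21, was at 71.4, 85.5 and 70.1 CPM in WT and 147, 106 and 139 CPM in KO (log2 fold change 0.79, SE 0.155, adjusted p = 0.00606). Btg2, an antiproliferative gene, was at 37.2, 26.3 and 44.7 CPM in WT and 93.2, 80.4 and 88.0 CPM in KO (log2 fold change 1.27, SE 0.178, adjusted p = 0.000921). KO lay above WT in all 3 without overlap. Ccng1 (0.77 ± 0.134), cyclin G1, Trp53inp1 (0.95 ± 0.206) and Eda2r (0.68 ± 0.143) also rose, while Trp53 was not called (0.13). The Trp53inp1 call was lost with no filter on low counts (adjusted p = 0.0519).

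Of 16 S-phase genes 6 fell (37.5%, against 7.90% of all genes) and none rose. The count was 3 without WT replicate 1 or KO replicate 1 and 2 without KO replicate 3. Cdk2 (-0.51 ± 0.0844) and Cdt1 (-0.43 ± 0.0937), which licenses replication origins, were called throughout. None of 16 G2 and M-phase genes was called with all libraries, and 3 rose without WT replicate 2. Among the BCL2 family and caspases 2 rose and 2 fell of 18 (11.1% each, where 7.14% of all genes rose and 7.90% fell). Only the fall of Bak1 held in every fit. Bak1, a pore-forming death effector, was at 119.8, 94.1 and 104 CPM in WT and 52.8, 58.4 and 50.2 CPM in KO (log2 fold change -0.98, SE 0.110, adjusted p = 0.000242).

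Of 28 imprinted genes 7 rose and 2 fell, where 7.14% of all genes rose and 7.90% fell. The falls were those of Grb10 and Phlda2 (-2.19 ± 0.372), a placental growth suppressor. The risen count was 3 without WT replicate 3, 2 without KO replicate 1 and 4 without KO replicate 2 or KO replicate 3, and 2 of the 7 rises held in every fit that left out a library. Rtl1, a retrotransposon-derived placental gene, was at 4.73, 2.91 and 3.59 CPM in WT and 11.0, 8.43 and 7.69 CPM in KO (log2 fold change 1.27, SE 0.243, adjusted p = 0.00517), and no library overlapped. Of 16 germline genes that DNA methylation silences 3 rose, led by Taf7l, a germline TFIID subunit, at 8.52, 5.15 and 11.7 CPM in WT and 33.6, 20.3 and 23.3 CPM in KO (log2 fold change 1.60, SE 0.324, adjusted p = 0.00686), and Asz1 (3.14 ± 0.661). Ddx4, a germ cell helicase (1.14 ± 0.298), was lost without WT replicate 1, KO replicate 1 or KO replicate 2 (adjusted p = 0.0818, 0.109 and 0.0538). Without WT replicate 2, 5 of the germline genes rose, Dazl, an RNA-binding protein of germ cells, among them (1.97, adjusted p = 0.00524). None of 6 Y-linked genes was called with all libraries, and Eif2s3y fell by 2.32 (adjusted p = 0.0428) without KO replicate 3.

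Other stress lists held a few called genes each, where 7.14% of all genes rose and 7.90% fell. Of 18 endoplasmic reticulum stress genes 3 rose (16.7%) and 1 fell (5.56%), and of 14 NRF2 targets 1 fell (7.14%). Of 13 heat-shock genes 2 rose (15.4%) and 1 fell (7.69%), and of 18 interferon and antigen-presentation genes 2 rose (11.1%) and 3 fell (16.7%). Of these calls, 2 rises in the endoplasmic reticulum list, the fall in the NRF2 list, the fall in the heat-shock list and 2 falls in the interferon list held in every fit that left out a library. In the last list H2-K1 (-1.68 ± 0.295), an MHC class I gene, and Stat2 (-1.16 ± 0.167) fell throughout. Of 26 mTORC1 regulators 2 fell, and of 16 iron genes 1, a call lost without WT replicate 1, WT replicate 2, KO replicate 1 or KO replicate 3. Eif4ebp1 (-0.76 ± 0.152), a translation repressor that mTORC1 inactivates, fell. Of 37 splicing regulators 5 rose and none fell, a count of 3 without WT replicate 3, KO replicate 2 or KO replicate 3 and 2 without KO replicate 1, and the call for Hnrnph1 held throughout. Zfp36l1, which destabilises AU-rich mRNAs, was at 26.8, 28.9 and 21.0 CPM in WT and 52.7, 59.0 and 55.6 CPM in KO (log2 fold change 1.12, SE 0.159, adjusted p = 0.000973), the only member called of 25 mRNA decay and miRNA genes with all 6 libraries. Without WT replicate 2, 4 of the 25 rose and 2 fell.

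The same clones in naive culture give the KO effect before differentiation. There 771 genes (4.25%) rose and 905 (4.99%) fell. Of the genes that rose in EpiLCs, 412 (31.8%) rose in naive cells too, which is 53.4% of those that rose there. Of those that fell, 370 (25.8%) fell in naive cells too, which is 40.9% of the falls there. Got1 (-1.67), Galk1 (-2.73), Gldc (-1.62) and Magea4 (2.99) had log2 fold changes of the same sign and were called in naive cells. None of the 26 ATF4 list genes was called in naive cells, where the list's median was -0.36, and none of the 20 cytosolic aminoacyl-tRNA synthetases or the 23 glycolytic genes was (edgeR; 4, 5 and 6 genes at an unadjusted p under 0.05).

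Whether an effect differed between the cultures was tested as an interaction. The effect was higher in EpiLCs for 41 genes (0.226%) and lower for 20 (0.110%), and with clone as a block 230 genes in all were called instead of 61. Without a single EpiLC library the count was 3 to 168, lowest without KO replicate 1 and highest without WT replicate 2. The other counts were 23 without WT replicate 1, 15 without WT replicate 3, 7 without KO replicate 2 and 25 without KO replicate 3. The interaction was called for 1 of the 26 ATF4 list genes and for none of the 20 synthetases or 23 glycolytic genes, so these lists are not shown to differ between the cultures. At an unadjusted p under 0.05 the edgeR counts were 13, 8 and 9, and with the block 1, 0 and 2 genes were called. That ATF4 gene was Asns, with -0.09 in naive cells and -1.18 in EpiLCs (interaction adjusted p = 0.0148, 0.0186 with the block), a difference lost without KO replicate 1 or KO replicate 2 (adjusted p = 0.0619 and 0.0514). Amot had log2 fold changes of -1.62 in naive cells and 2.29 in EpiLCs (interaction adjusted p = 0.0114), and its interaction passed the threshold without any single EpiLC library, up to an adjusted p of 0.0425.

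**Figure D5:**
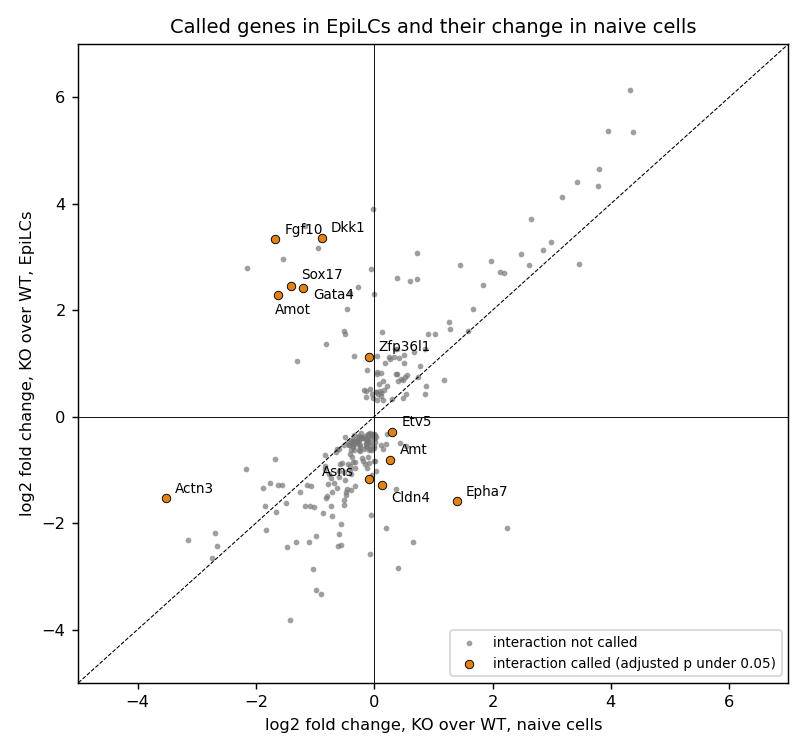
Log2 fold change (KO over WT) in EpiLCs (y axis) against that in naive cells (x axis) for 266 named genes called in EpiLCs, with 12 genes whose interaction was called in orange and the dashed line at equal change. Amot, Sox17, Gata4, Dkk1 and Fgf10 lie above the line and Asns, Amt, Cldn4 and Epha7 below it.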

How the data were processed

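Polyadenylated RNA of 12 cultures was sequenced from stranded libraries, per the labels' protocols. The authors deposited 1 table of raw read counts per gene for all 12, made with featureCounts 2.0.1 on GENCODE vM25 without strand, per the file headers. Per the submitters' processing notes fastp, FastQC, STAR and DESeq2 were also used, on GRCm38. Symbols were matched to 54349 gene IDs exactly and to 792 without version, and 346 had none.

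The counts were filtered with filterByExpr (minimum count 10, minimum total 15), scaled by TMM and fitted with edgeR 4.0.16 (quasi-likelihood, robust) in R 4.3.3 with 1 mean for each of the 4 groups, so that all 12 libraries share 1 estimate of the spread (8 residual degrees of freedom). Every adjusted p is Benjamini-Hochberg over the 18134 genes tested, and SE is the log2 fold change divided by the square root of F. The script was tested on simulated data. No library repeated another within sampling noise.

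The gene lists and the members named were chosen with earlier results of these data known. Named are Pcbp1 and its relatives, the 15 highest and 15 lowest fold changes and the 12 largest rises and falls in CPM among called genes with a mean of at least 5 CPM and no overlap, up to 6 called members a list, and members of the pluripotency, signalling, endoderm and germline lists. Of these, 2 genes are counted in their lists but not reported here. Same-numbered KO and WT libraries correlated at -0.08, -0.10 and -0.27 in their deviations from the group means, so numbers do not pair the genotypes. The same clone in both cultures correlated at 0.15 to 0.26, and the interaction is given with clone as a block too. Alternatives were RLE size factors, other filters, the 6 EpiLC libraries alone, replicate blocks, leaving out each EpiLC library, and DESeq2 1.42.0.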

Additional observations from a re-analysis of the deposited data

Results flagged for a closer look

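The KO effect in EpiLCs differed from that in naive cells for 12 of the named genes that were called in EpiLCs, by the edgeR interaction test over all 12 libraries (adjusted p under 0.05). The difference is the log2 fold change in EpiLCs minus that in naive cells, and the call of Amot held without any single EpiLC library.

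It was below 0 for 5 genes, namely Epha7, an ephrin receptor (-2.99, adjusted p = 0.0340), Cldn4, a tight junction claudin (-1.43, adjusted p = 0.0340), Asns, asparagine synthetase (-1.09, adjusted p = 0.0148), Amt of the glycine cleavage system (-1.08, adjusted p = 0.0148) and Etv5, an ETS factor (-0.59, adjusted p = 0.0388). Without single libraries their adjusted p rose to 0.0888, 0.0944, 0.0619, 0.0619 and 0.103.

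It was above 0 for Zfp36l1, an mRNA decay factor (1.21, adjusted p = 0.0422), Actn3, a muscle alpha-actinin (1.98, adjusted p = 0.0388), and Amot, a Hippo pathway scaffold (3.92, adjusted p = 0.0114). Actn3 had log2 fold changes of -3.52 in naive cells and -1.53 in EpiLCs. The highest adjusted p without a single library was 0.112 for Zfp36l1, 0.103 for Actn3 and 0.0425 for Amot.

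It was also above 0 for the endoderm factors Gata4 (3.62, adjusted p = 0.0410) and Sox17 (3.86, adjusted p = 0.0496), and for the secreted factors Dkk1 (4.24, adjusted p = 0.04996) and Fgf10 (5.01, adjusted p = 0.0148), all at a few CPM or less. With clone as a block the calls of Sox17 (adjusted p = 0.0519) and Dkk1 (0.0552) were lost and the other 10 held. Without single libraries the adjusted p reached 0.103 for Gata4, 0.112 for Sox17, 0.128 for Dkk1 and 0.0619 for Fgf10.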

How the results depend on the processing

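The count of called genes was 2693 with RLE size factors, 2769 with no filter on low counts, 2317 with a stricter filter, 1965 with only the 6 EpiLC libraries and 3547 by DESeq2, against 2726, and no call turned direction. Leaving out each EpiLC library in turn gave 1368 to 3090 called genes, and 837 to 1415 against 1334 at 2-fold or more. With replicate number as a block the fit of 12 libraries gave 2558 called genes and that of the 6 EpiLC libraries gave 898, of which 710 changed at least 2-fold. The numbers do not pair the genotypes, and that fit has fewer degrees of freedom. Over the named genes and all alternatives, 2827 comparisons kept the call and 650 lost it, and none turned direction. Of the list medians 816 stayed within the spread between KO clones and 132 moved further. The 12 interactions described kept their call in 38 cases over all alternatives and lost it in 46, a choice of settings made after seeing the data. With 3 clones a side the SE sets what can be called, and for genes under 1 CPM counting error adds to it.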
